A study of Mus musculus with 12 samples.

Results

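The 9 genes described here encode transcription factors that direct helper T cell lineages or mark effector regulatory T cells (Treg), and they are Tbx21, Gata3, Rora, Ahr, Irf4, Prdm1, Maf, Eomes and Runx3. They and the lists of related genes below were chosen by name, with earlier results of these data known. Each of the 9 was found among the 36222 genes of the expression table. RNA was sequenced from 12 libraries of mouse Treg, 3 in each of 4 groups, which the labels give as from spleen, while the study's general cell purification also names lymph nodes. The knockout strain is of B6 background per the study. All animals carried a Foxp3-driven YFP-Cre, so the Cre acts in cells that express Foxp3, and the cells were CD4+ T cells sorted by YFP from single animals. The wild-type (WT) groups carried this Cre alone, and the conditional knockout (cKO) groups also carried floxed Ikzf1, which encodes the transcription factor Ikaros and is deleted in Treg by the Cre. Cells were taken either without stimulation (ex vivo), from mice aged 6 to 8 weeks, or after 4 h of plate-bound anti-CD3 and anti-CD28, each at 1 µg/ml (stimulated). Whether the stimulated cells came from the same animals is not given in the sources used here. No library of cells cultured without the antibodies was analysed here, so the antibodies and the culture cannot be told apart.

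Helper T cells adopt alternative programmes, each led by its own transcription factor. T-bet (Tbx21) leads the Th1 programme of interferon gamma production, GATA3 the Th2 programme of type 2 cytokines, and Rora takes part in the Th17 programme. Treg can express the same factors, and together with Irf4, Prdm1 and Maf these accompany their transition from a resting, lymphoid state to an effector state in tissues.

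Each library held 8208659 to 20247649 reads in genes, with the fewest in cKO stimulated, 8208659 to 10930376. Values below are TPM, transcript abundances that sum to 1000000 in a library. They are relative to gene length and can be compared between genes. Unless called deposited, they are scaled between libraries by trimmed means of M-values. One gene model, Gm10800, took up the largest share of TPM in cKO stimulated (48.8 ± 6.58%; SD, n = 3), against 38.1 ± 5.93% for stimulated WT cells, 22.9 ± 2.17% for ex vivo cKO cells and 26.0 ± 12.1% for ex vivo WT cells. The third WT ex vivo library stood apart in sex-linked genes, with 179 TPM of Xist against 0.624 to 1.36 TPM in the other 11 libraries and 0.0970 TPM of the Y-linked Ddx3y against 14.7 to 52.8 TPM. Members that lose a call without that library are named below, while values of the other listed genes without it are not given. The 7 Treg markers summed to 912 to 2455 deposited TPM per library, against at most 29.9 TPM for each list of B cell, plasma cell, myeloid, CD8 T cell, NK cell or erythroid markers. Of all these markers, Hba-a1 alone was listed at 0 in a whole group, WT stimulated. The Treg markers Foxp3 and Il2ra were higher in stimulated cKO cells, by 0.96 ± 0.18 and 0.80 ± 0.15 (log2, SE; limma adjusted p = 0.0085 and 0.0097), and their part in the stimulated results was not tested. As these are bulk samples, fewer cells of a type and less RNA per cell cannot be told apart.

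Ikzf1, the targeted gene, measured 114, 104 and 113 TPM for WT ex vivo and 42.1, 33.0 and 38.4 TPM for cKO ex vivo. It measured 66.7, 71.1 and 68.9 TPM for WT stimulated and 29.96, 30.1 and 23.3 TPM for cKO stimulated. All cKO libraries lay below all WT libraries in both conditions, and the difference between the genotypes was -1.52 ± 0.11 ex vivo and -1.29 ± 0.11 stimulated (log2, SE; limma adjusted p 5.5e-05 and 0.00016).

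The sequences before the start sites are shown because 6 of the 8 tested members were called higher in cKO ex vivo and Ikaros is known to bind DNA at GGGAA. RefSeq promoters (build GRCm38.p6) were given for 7 of the 9 members, Ahr and Maf aside, with a pair of start sites for Runx3. The 250 bases before the start are printed for Tbx21, Irf4 and Prdm1, the members with the largest ex vivo differences among these 7, on the strand of the gene and 5′ to 3′. Capitals mark GGGAA or its reverse complement TTCCC.
Tbx21 (chr11:97115332-97115581, minus strand): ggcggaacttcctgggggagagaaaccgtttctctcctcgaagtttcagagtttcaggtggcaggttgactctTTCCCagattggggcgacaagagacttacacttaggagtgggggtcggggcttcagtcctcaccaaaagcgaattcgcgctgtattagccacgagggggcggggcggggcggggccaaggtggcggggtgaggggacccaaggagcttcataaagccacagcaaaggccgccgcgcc
Irf4 (chr13:30748983-30749232, plus strand): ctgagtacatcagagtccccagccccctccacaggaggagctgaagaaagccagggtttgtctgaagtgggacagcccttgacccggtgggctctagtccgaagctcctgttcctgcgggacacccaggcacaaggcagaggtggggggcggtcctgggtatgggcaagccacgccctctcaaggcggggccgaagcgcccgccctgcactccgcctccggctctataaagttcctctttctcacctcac
Prdm1 (chr10:44458749-44458998, minus strand): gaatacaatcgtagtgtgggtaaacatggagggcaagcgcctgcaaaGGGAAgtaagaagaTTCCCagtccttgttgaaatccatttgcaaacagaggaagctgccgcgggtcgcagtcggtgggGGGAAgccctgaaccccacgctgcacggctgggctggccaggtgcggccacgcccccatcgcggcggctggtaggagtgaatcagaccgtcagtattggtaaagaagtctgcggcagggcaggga

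The Tbx21 window held 1 match, the Prdm1 window 3 and the Irf4 window 0. One of the Runx3 windows also held 1 match, so that 3 of the 8 member windows held the letters. The windows of Gata3, Rora and Eomes held none. Of 32851 RefSeq windows of the same length, 56.2% held GGGAA on either strand. A match is a description of these letters in this window and not a binding site.

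With the 5 TPM filter used here, most of these factors were higher in cKO than in WT Treg ex vivo. Of the 8 members tested, 6 were called higher in cKO than in WT (Irf4, Tbx21, Ahr, Prdm1, Maf and Runx3), none was called lower, and all 8 differences were positive. By limma with Benjamini-Hochberg adjustment, 5.29% of the 13318 genes tested were called, 3.62% higher and 1.67% lower. The median difference was 0.65 (log2) over the 8 members and -0.01 over all genes tested. Genes were tested when their highest group mean reached 5 TPM. Eomes did not pass this filter, and Tbx21, at 4.51 TPM as deposited in WT ex vivo, passed it through the other groups. The calls rest on this filter, which was chosen with earlier results of these data known: with a filter at 1 TPM, which tested 33873 genes and called 0.168% of them, 0 of 9 members were called ex vivo with a median difference of 0.66 over the same 8.

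**Figure D1:**
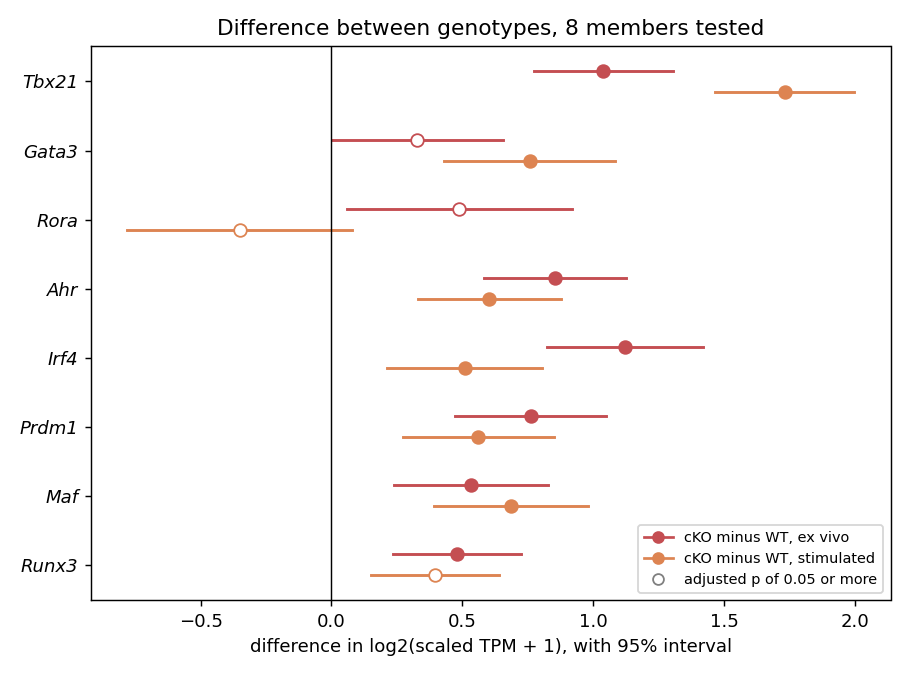
Difference between cKO and WT for the 8 members tested (y axis), as log2(scaled TPM + 1) with its 95% interval (x axis), ex vivo in red and stimulated in orange. Filled points have an adjusted p under 0.05. Ex vivo all 8 points lie above 0, and stimulated only Rora lies below 0.

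After stimulation 6 of the 8 members tested were again called higher in cKO (Tbx21, Gata3, Maf, Ahr, Prdm1 and Irf4) and none lower, where 6.93% of all genes tested were called, 3.30% higher and 3.63% lower. The median difference was 0.58 over the 8 members and -0.03 over all genes tested. With the filter at 1 TPM, which called 0.154% of the genes, only Tbx21 was called, and the same was found for the TPM as deposited. In these settings the median over all 13318 genes was -0.31 and -0.30 and that over the 8 members 0.31 and 0.32. Rescaling without Gm10800 left Tbx21, Gata3 and Maf called by limma, while Ahr (0.61, adjusted p = 0.052), Irf4 (0.50, adjusted p = 0.077) and Prdm1 (0.58, adjusted p = 0.084) missed the threshold there.

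**Figure D2:**
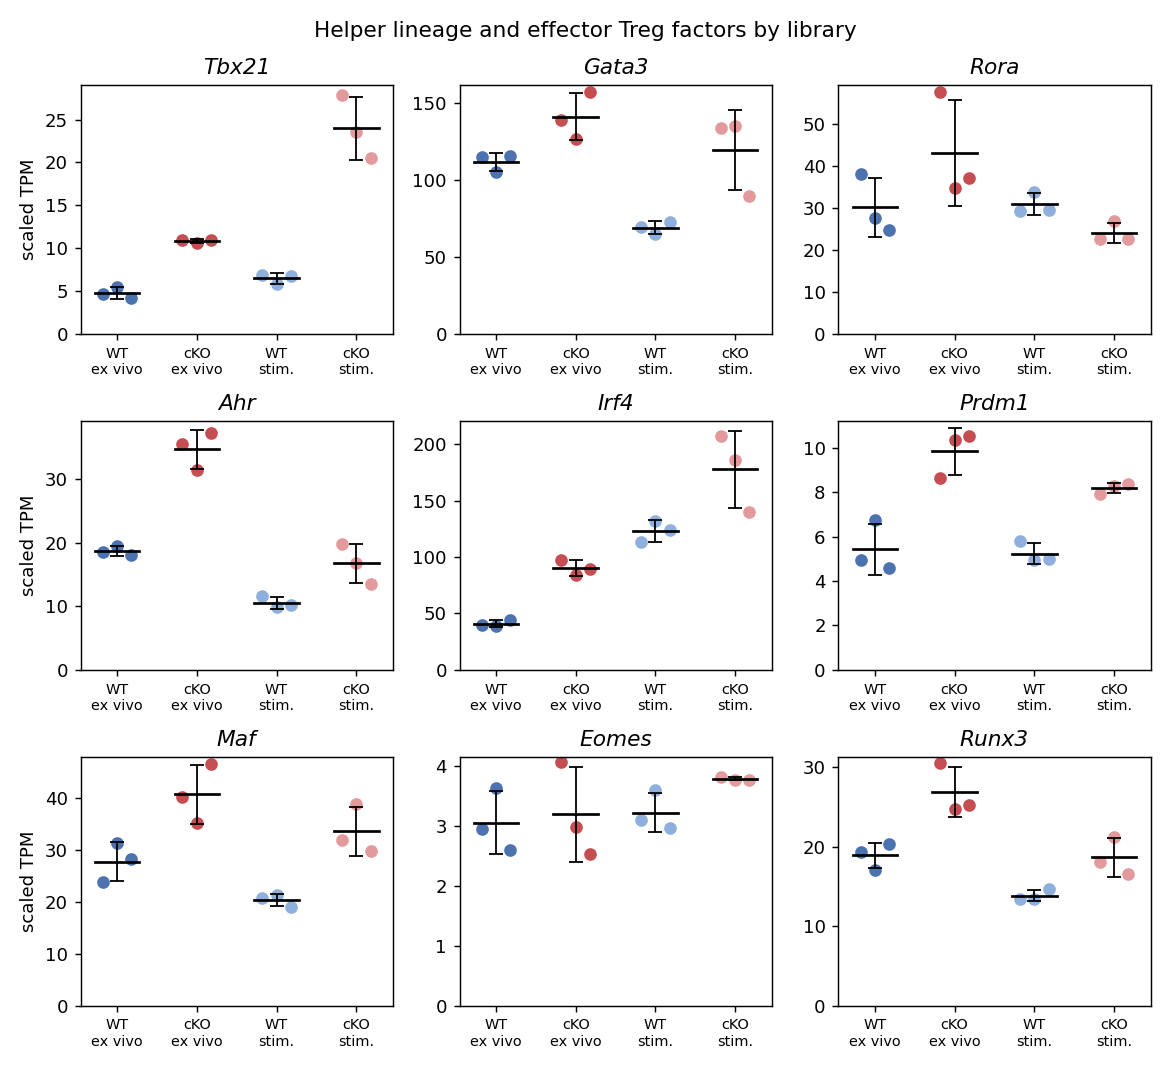
Scaled TPM (y axis, from 0) of each member in the 12 libraries by group (x axis). Points are libraries, long bars group means and whiskers the SD (n = 3). Tbx21 was highest in cKO stimulated, at 20.5 to 27.9 TPM, and Irf4 was lowest in WT ex vivo, at 39.1 to 44.4 TPM.

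Tbx21 (ENSMUSG00000001444, mm9 chr11:96959385-96976645) encodes T-bet, the T-box factor of Th1 cells. Ex vivo it measured 4.64, 5.52 and 4.21 TPM for WT and 10.95, 10.6 and 10.99 TPM for cKO. The groups did not overlap, and the difference was 1.04 ± 0.12 (log2, SE; limma adjusted p = 0.00093). Stimulated cells held 6.88, 5.78 and 6.79 TPM in WT and 27.9, 23.6 and 20.5 TPM in cKO. Every cKO library was again above every WT library, by 1.73 ± 0.12 (adjusted p = 5.5e-05). This call was kept in 22 of 23 alternative settings of the analysis and lost where the 1 TPM filter was joined with a replicate block (adjusted p = 0.066). Ex vivo it was kept in 20 of 23 and lost with a 1 TPM filter, with none (adjusted p = 0.082 and 0.11) and with that filter and the block (adjusted p = 0.17).

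With stimulation Tbx21 rose by 1.07 ± 0.12 in cKO (limma adjusted p = 6.8e-05) and by 0.37 ± 0.12 in WT (adjusted p = 0.036). The WT rise was called in 10 of 23 alternatives and in 5 of the 12 that left out a library, and not without the third WT ex vivo library (adjusted p = 0.11). In cKO the rise was called in 20 of 23, the exceptions being again the settings with a 1 TPM filter or none. The rise in cKO exceeded that in WT by 0.69, with a 95% interval of 0.32 to 1.07, which missed the threshold after adjustment (interaction adjusted p = 0.084).

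Genes of the Th1 programme were set beside Tbx21. Of 10 tested, 3 were called higher in cKO ex vivo and none lower, with a list median of 0.24. Ifng, the cytokine of Th1 cells, differed by 1.604 ± 0.26 (limma adjusted p = 0.0062), and Cxcr3, a chemokine receptor that T-bet is known to induce, by 1.00 ± 0.10 (adjusted p = 0.00028). In stimulated cells the difference of Cxcr3 was 0.14, with an interval of -0.07 to 0.36, and was not called (adjusted p = 0.39). With stimulation it fell in cKO, by 0.77 ± 0.10 on the log2 scale (adjusted p = 0.00014). It was the one gene of the list that limma called for the interaction (-0.86 ± 0.14, adjusted p = 0.016), where voom called 2. Il18r1, a subunit of the interleukin 18 receptor, differed ex vivo by 0.65 ± 0.11 (adjusted p = 0.0056). Stimulated cells had 3 called higher and none lower, Ifng at 2.54 ± 0.26 (adjusted p = 0.00032) and the interleukin 12 receptor chains Il12rb1 and Il12rb2. Hlx was not tested.

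Eomes (ENSMUSG00000032446, mm9 chr9:118387330-118395250) is the other T-box factor, best known from CD8 T cells and NK cells. It held 2.94, 3.63 and 2.596 TPM in WT ex vivo, 4.07, 2.97 and 2.54 TPM in cKO ex vivo, 3.10, 3.59 and 2.97 TPM in WT stimulated and 3.81, 3.77 and 3.77 TPM in cKO stimulated. These are 82 to 231 reads per library. Ex vivo the genotypes overlapped. Stimulated, the cKO libraries lay just above the WT libraries, but the deposited TPM overlapped. With the filter at 1 TPM the difference was 0.05 ± 0.19 ex vivo and -0.05 ± 0.19 stimulated (log2, SE; limma adjusted p = 1.00 and 0.93). That setting has scaling factors of its own, other than those of the TPM printed here. The median difference there over 13318 genes was -0.0006 ex vivo and -0.31 stimulated. The deposited means of Eomes, 2.87 to 3.53 TPM, lay above 99.6% to 100% of 1716 olfactory and vomeronasal receptor genes, which T cells do not use and whose medians were 0.667 to 1.04 TPM. The NK cell list summed to 4.26 to 10.6 deposited TPM and the CD8 list to 8.84 to 16.3 TPM, and their part in the Eomes level was not tested.

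**Figure D3:**
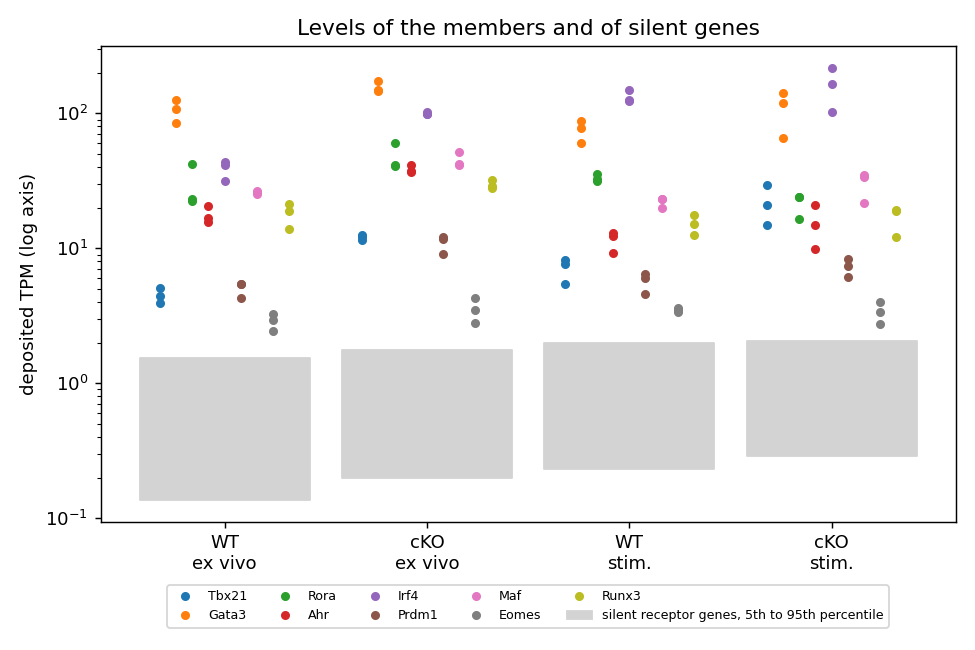
Deposited TPM (y axis, log scale) of the 9 members in each library by group (x axis). Grey boxes span the 5th to the 95th percentile of the group means of 1716 receptor genes that T cells do not use. Eomes has the lowest mean in each group, between 2.87 and 3.53 TPM, and lies above the grey boxes, which end between 1.54 and 2.04 TPM.

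Gata3 (ENSMUSG00000015619, mm9 chr2:9778705-9811661) encodes the zinc finger factor of Th2 cells and was the most abundant member ex vivo. It measured 115, 105 and 115 TPM for WT ex vivo and 139, 127 and 157 TPM for cKO ex vivo. The groups did not overlap, but the difference of 0.33, with a 95% interval of 0.0021 to 0.66, missed the threshold after adjustment (limma adjusted p = 0.28). Stimulated, it measured 69.5, 64.7 and 73.0 TPM for WT and 134, 135 and 89.5 TPM for cKO. The cKO libraries were all higher, with the third well below the other two, and the difference was 0.76 ± 0.15 (adjusted p = 0.012). This call held in 16 of 23 alternatives. It was lost without the second WT or the first cKO stimulated library (adjusted p = 0.064 and 0.054) and with the TPM as deposited (adjusted p = 0.25), which overlapped.

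With stimulation Gata3 fell in WT, by 0.69 ± 0.15 on the log2 scale (limma adjusted p = 0.0050), a call kept in 17 of 23 alternatives and lost when the TPM were rescaled without Gm10800 (-0.24, adjusted p = 0.25). That rescaling also raised the WT changes of Maf, Runx3 and Prdm1. In cKO the change was -0.26, with an interval of -0.58 to 0.07 (adjusted p = 0.18). After quantile normalization the sign in cKO turned, to 0.44 (adjusted p = 0.0093), and the change was 0.0079 (adjusted p = 0.97) on that rescaling and -0.82 (adjusted p = 0.074) with the filter at 1 TPM. With that filter the median change in cKO over all 13318 genes was itself -0.52. The difference between these changes was 0.43, with an interval of -0.03 to 0.89 (interaction adjusted p = 0.38). Gata3 shares exon sequence on its own strand with 9230102O04Rik, listed at 1.44 to 4.79 TPM, so the count of Gata3 is uncertain by the reads that fall there.

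Of the 6 tested genes of the Th2 list, 1 was called higher in cKO ex vivo and 2 when stimulated, with none lower. The median difference over the 6 was 0.06 ex vivo and 0.63 stimulated. The gene called in both was Il1rl1, the interleukin 33 receptor, which differed by 0.97 ± 0.15 ex vivo and 0.89 ± 0.15 stimulated (limma adjusted p = 0.0048 and 0.0056). The chemokine receptor Ccr4 was higher by 1.03 ± 0.19 in stimulated cKO cells (adjusted p = 0.0097). Ex vivo, differences below 0 that were not called were those of the interleukin 4 receptor Il4ra (-0.55, with an interval of -0.92 to -0.18, adjusted p = 0.099), of Stat6, which acts downstream of it (-0.32, with an interval of -0.60 to -0.04, adjusted p = 0.21), and of the cytokine Il13 (-0.51, with an interval of -1.31 to 0.30, adjusted p = 0.55). Il4 and Il5 did not pass the filter.

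Rora (ENSMUSG00000032238, mm9 chr9:68501593-69236053) encodes an orphan nuclear receptor that takes part in Th17 differentiation and is also found in tissue Treg. Ex vivo its libraries held 38.2, 27.5 and 24.7 TPM in WT and 57.5, 34.7 and 37.1 TPM in cKO. The groups overlapped, and the difference of 0.49, with an interval of 0.06 to 0.92, was not called (limma adjusted p = 0.21). Stimulated, Rora measured 29.4, 33.9 and 29.5 TPM for WT and 22.7, 26.9 and 22.6 TPM for cKO. The cKO libraries all lay below the WT libraries, but the difference of -0.35, with an interval of -0.78 to 0.08, was not called (adjusted p = 0.30).

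Rora fell with stimulation in cKO, by 0.78 ± 0.19 on the log2 scale (limma adjusted p = 0.0085), in 21 of 23 alternatives and not after quantile normalization or rescaling without Gm10800. In WT its change was 0.06, with an interval of -0.37 to 0.49 (adjusted p = 0.85), and negative in 5 of the alternatives. The difference between the genotypes in this change was -0.84, with an interval of -1.45 to -0.23 (interaction adjusted p = 0.18), and it was called by voom on the recovered reads (-0.86, adjusted p = 0.037). Of the Th17 list, 2 of 8 genes passed the filter, Ccr6 and Stat3, and limma called 0 of them between the genotypes. At an unadjusted p under 0.05 there was 1 in each comparison, Ccr6 ex vivo and Stat3 stimulated, and voom called 1 in each.

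Ahr (ENSMUSG00000019256, mm9 chr12:36182646-36219710) encodes the aryl hydrocarbon receptor, a ligand-activated factor that senses dietary and microbial compounds. It measured 18.6, 19.5 and 17.99 TPM for WT ex vivo and 35.4, 31.3 and 37.2 TPM for cKO ex vivo. The groups were far apart, and the difference was 0.85 ± 0.12 (limma adjusted p = 0.0034), called in 20 of 23 alternatives and in all 12 that left out a library. Stimulated, the WT libraries held 11.6, 9.84 and 10.2 TPM and the cKO libraries 19.7, 16.8 and 13.6 TPM. They did not overlap as scaled, though the deposited TPM did, and the difference was 0.60 ± 0.12 (adjusted p = 0.015). This call held in 14 of 23 alternatives. It was lost without the second or the third WT or the first cKO stimulated library (adjusted p = 0.078, 0.061 and 0.053).

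Ahr fell with stimulation in both genotypes, by 0.77 ± 0.12 on the log2 scale in WT (limma adjusted p = 0.00080) and by 1.02 ± 0.12 in cKO (adjusted p = 0.00011). The cKO fall was called in all 23 alternatives and the WT fall in 20. Of the Ahr pathway list, 3 of 7 genes passed the filter, among them Arnt, the dimerization partner, and Tiparp, a target gene and feedback inhibitor. Limma called 0 of the 3 between genotypes, ex vivo or stimulated. At an unadjusted p under 0.05 there was 1 ex vivo, Tiparp at 0.41 ± 0.11 (adjusted p = 0.062), which voom also called, and 0 when stimulated, where voom too called 0. Tiparp fell with stimulation by 2.10 ± 0.11 in WT and by 2.44 ± 0.11 in cKO on the log2 scale. Cyp1a1, Cyp1b1, Ahrr and Nqo1, further target genes, stayed under 5 TPM in every group.

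Irf4 (ENSMUSG00000021356, mm9 chr13:30841095-30858796) encodes an interferon regulatory factor that antigen receptor signals induce and that effector Treg require. Ex vivo it measured 39.5, 39.1 and 44.4 TPM for WT and 97.7, 83.9 and 89.5 TPM for cKO. Each cKO library was far above each WT library, and the difference was 1.12 ± 0.13 (limma adjusted p = 0.0012). It was called in 20 of 23 alternatives, among them all 12 that left out a library. Stimulated, it measured 113, 132 and 124 TPM for WT and 207, 186 and 140 TPM for cKO.

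The stimulated groups did not overlap, with the third cKO library nearest to WT, and the difference was 0.51 ± 0.13 (limma adjusted p = 0.047). This was the least stable call, held in 5 of 23 alternatives and, when a library was left out, only without the third WT ex vivo or the third cKO stimulated one (adjusted p of 0.054 to 0.15 in the other 10), and the deposited TPM overlapped. Irf4 was the member that rose most with stimulation in WT, by 1.56 ± 0.13 (adjusted p = 1.5e-05), called in all 23 alternatives. In cKO it rose by 0.95 ± 0.13 (adjusted p = 0.00030), called in 19. The rise in cKO was smaller by 0.61, and this interaction of -0.61, with an interval of -1.03 to -0.19, was not called (adjusted p = 0.16).

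Factors that bind DNA together with IRF4 were set beside it. Of 5 tested, Jun and Jund were called lower in cKO ex vivo, by -1.28 ± 0.22 and -0.54 ± 0.14 (log2, SE; limma adjusted p = 0.0070 and 0.043), and none was called higher. In stimulated cells Jun differed by 0.61 ± 0.22 and was not called (limma adjusted p = 0.12). The interaction of Jun was called, at 1.89 ± 0.30 (limma adjusted p = 0.017). After stimulation limma called Irf8 alone between the genotypes, at 1.29 ± 0.16 higher in cKO (adjusted p = 0.0010), and voom called 2 of the 5. Batf, the partner of IRF4 at composite sites with AP-1, differed by 0.18 ± 0.10 ex vivo and 0.36 ± 0.10 stimulated (adjusted p = 0.40 and 0.058).

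Prdm1 (ENSMUSG00000038151, mm9 chr10:44156983-44248307) encodes the repressor Blimp, found in effector Treg that make interleukin 10 and in plasma cells. It was among the low members, at 4.96, 6.75 and 4.60 TPM in WT ex vivo and 8.63, 10.3 and 10.5 TPM in cKO ex vivo. The groups did not overlap, and the difference was 0.76 ± 0.13 (limma adjusted p = 0.0077), called in 20 of 23 alternatives. Stimulated, it held 5.79, 4.93 and 4.99 TPM in WT and 7.92, 8.26 and 8.38 TPM in cKO. The difference of 0.56 ± 0.13 (adjusted p = 0.028) was called in 12 of 23 alternatives. It was lost without the second or the third WT stimulated library (adjusted p = 0.11 and 0.096) or any of the 3 cKO ones (0.062 to 0.074), and the deposited TPM overlapped. Stimulation changed Prdm1 by -0.03 (interval -0.32 to 0.25) in WT and by -0.23 (interval -0.52 to 0.05) in cKO, neither of them called (adjusted p = 0.86 and 0.17). In cKO a fall was called in 5 of 23 alternatives, among them the 1 TPM filter (-0.73, adjusted p = 0.0074) and the TPM as deposited (-0.53, adjusted p = 0.040). In these settings the median change over all 13318 genes was itself -0.52 and -0.31.

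Irf4 and Prdm1 are also genes of B lineage cells, and the B cell marker level was set beside them. The summed level of the 5 B cell markers, scaled, was 12.5 to 18.3 TPM in WT and 21.5 to 25.4 TPM in cKO ex vivo, and 13.2 to 14.5 TPM in WT and 17.7 to 26.2 TPM in cKO stimulated. These sums did not overlap between the genotypes. Cd79b held the largest part, at 5.94 ± 1.53 and 11.9 ± 0.285 deposited TPM ex vivo (SD, n = 3), while Ms4a1 lay at 1.07 ± 0.121 and 1.37 ± 0.416 TPM, under the 95th percentile of the silent receptor genes. Stimulated, Ms4a1 lay at 1.29 ± 0.124 TPM in WT and 2.58 ± 0.645 TPM in cKO, the latter above that percentile (2.04 TPM). Cd79b was higher in stimulated cKO cells by 0.96 ± 0.23 (limma adjusted p = 0.028) and differed by 0.70 ± 0.23 ex vivo (adjusted p = 0.11). Cd22 lay at 4.11 ± 0.351 deposited TPM in WT and 7.72 ± 1.07 TPM in cKO ex vivo, a difference of 0.56 with an interval of 0.18 to 0.94 that was not called by limma (adjusted p = 0.10). Voom called both Cd79b and Cd22 ex vivo, the 2 B cell markers tested. The 3 plasma cell markers summed to 5.04 to 5.21 TPM in WT and 4.05 to 5.95 TPM in cKO ex vivo, and to 8.19 to 8.80 TPM and 10.96 to 12.4 TPM stimulated. The part of these markers in the results was not tested.

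Maf (ENSMUSG00000055435, mm9 chr8:118206842-118231694) encodes the leucine zipper factor c-Maf, a known activator of Il10 that also takes part in Th2, Th17 and follicular programmes. It measured 23.8, 31.4 and 28.2 TPM for WT ex vivo and 40.3, 35.2 and 46.6 TPM for cKO ex vivo. The groups did not overlap, and the difference was 0.53 ± 0.13 (limma adjusted p = 0.044). The call lay at the threshold: it held in 8 of 23 alternatives and in 4 of the 12 that left out a library, and adjusted p was 0.10 without the third WT ex vivo library and 0.16 without the third cKO ex vivo library. Stimulated, it measured 20.7, 21.3 and 19.1 TPM for WT and 32.0, 38.96 and 29.8 TPM for cKO. The groups did not overlap, and the difference was 0.69 ± 0.13 (adjusted p = 0.012), called in 18 of 23 alternatives and not without the third WT stimulated library (adjusted p = 0.054). The deposited TPM overlapped.

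With stimulation Maf fell in WT, by 0.42 ± 0.13 on the log2 scale (limma adjusted p = 0.034), in 11 of 23 alternatives and in 7 of the 12 that left out a library, and not without the third WT ex vivo library (adjusted p = 0.081). When the TPM were rescaled without Gm10800 the WT change was 0.0084 (adjusted p = 0.96). That rescaling took the place of the trimmed means, and its median over all genes is not given. It called 6342 genes for stimulation in WT against 4262, and the WT changes of Gata3, Runx3 and Prdm1 were raised there too. In cKO the change was -0.27, with an interval of -0.57 to 0.02 (adjusted p = 0.12). A fall in cKO was called in 4 of 23 alternatives, among them the 1 TPM filter (-0.82, adjusted p = 0.033) and the TPM as deposited (-0.59, adjusted p = 0.029). The median change over all 13318 genes was itself -0.52 and -0.31 in these settings.

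Of the 12 effector Treg genes, all tested, 3 were called higher in cKO ex vivo and 3 when stimulated, none lower, with list medians of 0.48 and 0.30. Il10, a target of Prdm1 and Maf, differed by 0.87 ± 0.21 ex vivo (limma adjusted p = 0.037) and by 0.31 ± 0.21 stimulated (adjusted p = 0.39). Klrg1, a surface marker of terminal effector Treg, was higher ex vivo by 0.86 ± 0.10 (adjusted p = 0.00072). Ebi3, a subunit of interleukins 27 and 35, was higher in both, by 1.19 ± 0.19 and 1.20 ± 0.19 (adjusted p = 0.0049 and 0.0034). Icos, a costimulatory receptor, and Entpd1, which encodes the ectonucleotidase CD39, were the others called in stimulated cells.

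Runx3 (ENSMUSG00000070691, mm9 chr4:134676567-134733905) encodes a Runt domain factor that works with T-bet in Th1 cells and represses Cd4 in CD8 T cells. It measured 19.3, 17.1 and 20.3 TPM for WT ex vivo and 30.5, 24.7 and 25.3 TPM for cKO ex vivo. The groups did not overlap, and the difference was 0.48 ± 0.11 (limma adjusted p = 0.031), called in 12 of 23 alternatives and in 6 of the 12 that left out a library. Without the third WT ex vivo library adjusted p was 0.054, and without the first cKO ex vivo library 0.12. Stimulated, it measured 13.5, 13.5 and 14.7 TPM for WT and 18.1, 21.3 and 16.6 TPM for cKO. These groups did not overlap either, but the difference of 0.40, with an interval of 0.15 to 0.64, just missed the threshold (adjusted p = 0.057). It was called in 3 of 23 alternatives, which were quantile normalization (adjusted p = 0.0057), voom on recovered reads (adjusted p = 0.017) and the fit without the third cKO stimulated library (adjusted p = 0.041). The deposited TPM overlapped.

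Runx3 fell with stimulation, by 0.42 ± 0.11 on the log2 scale in WT and by 0.50 ± 0.11 in cKO (limma adjusted p = 0.014 and 0.0045). The cKO fall was called in 22 of 23 alternatives and not when the TPM were rescaled without Gm10800 (-0.25, adjusted p = 0.11). The WT fall was called in 17 of 23, was lost without the third WT ex vivo library (adjusted p = 0.058) and was a change of 0.0030 with the TPM rescaled without Gm10800. That rescaling also raised the WT changes of Gata3, Maf and Prdm1. Of its relatives Runx2 was the only one of 4 listed genes that limma called between genotypes, higher in cKO ex vivo by 0.82 ± 0.15 (adjusted p = 0.0089). Voom called 1 ex vivo and 1 stimulated, where limma called 0. Cbfb, the shared subunit of Runx factors, differed by -0.31 ± 0.09 ex vivo and -0.33 ± 0.09 stimulated (limma adjusted p = 0.077 and 0.056).

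The scaled ranges of the genotypes were separate for 7 of the 9 members ex vivo, all but Rora and Eomes, and 21.5% of all genes tested were separate. Stimulated they were separate for all 9 as scaled and for 2 as deposited, Tbx21 and Rora, beside 30.8% of all genes tested as scaled. With 3 libraries against 3 an exact permutation test cannot give a p below 0.1, so separate ranges reach only that value. The sign of the difference between the genotypes was the same in all 23 alternatives for each of the 8 tested members, ex vivo and stimulated.

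**Figure D4:**
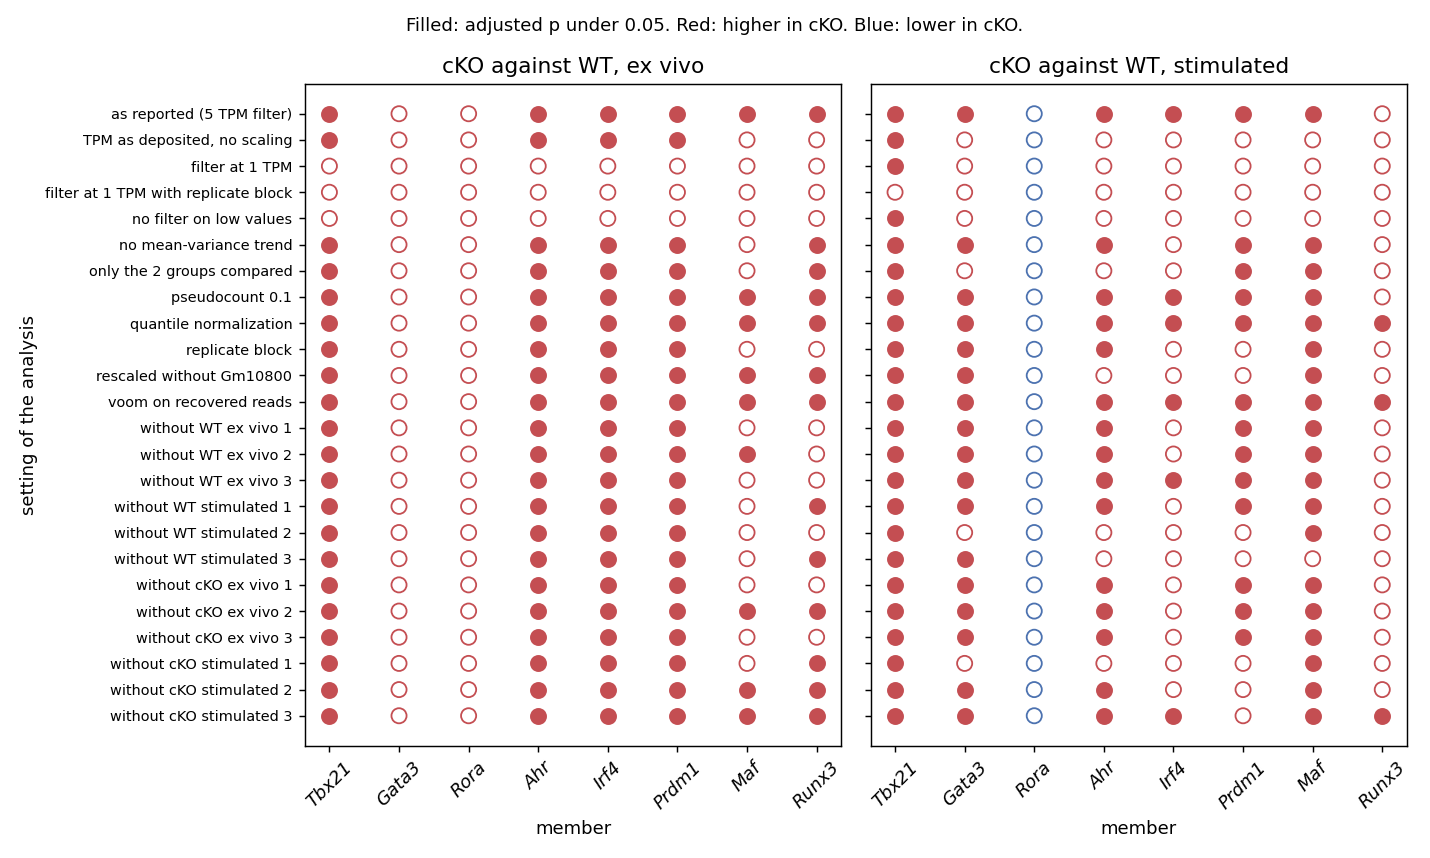
Calls for the difference between the genotypes under each setting of the analysis (y axis) for the 8 members tested (x axis), ex vivo at left and stimulated at right. Filled circles have an adjusted p under 0.05, red is higher and blue lower in cKO. Ex vivo every circle is open in the 3 settings with a filter at 1 TPM or none, and stimulated only Tbx21 is filled in 2 of these 3.

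Stimulation moved the members in both directions. In WT 2 of the 8 tested were called higher (Irf4 and Tbx21) and 4 lower (Ahr, Gata3, Maf and Runx3), where 32.0% of all genes tested were called, 12.7% higher and 19.3% lower. In cKO 2 were called higher (Irf4 and Tbx21) and 3 lower (Ahr, Rora and Runx3), beside 43.8% of all genes called, 17.3% and 26.5% in these directions. The median change over the 8 members was -0.23 in WT and -0.26 in cKO, against 0.0021 and -0.01 over all genes tested. With the filter at 1 TPM the members called in WT were 2, Irf4 and Ahr, beside 5.11% of genes, and in cKO 5 of 9, beside 17.5%. Those in cKO were all lower (Ahr, Rora, Runx3, Maf and Prdm1), since the calls of Tbx21 (0.54, limma adjusted p = 0.094) and Irf4 (0.39, adjusted p = 0.37) were lost there and those of Maf and Prdm1 gained. In that setting the median over all 13318 genes was -0.22 in WT and -0.52 in cKO.

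**Figure D5:**
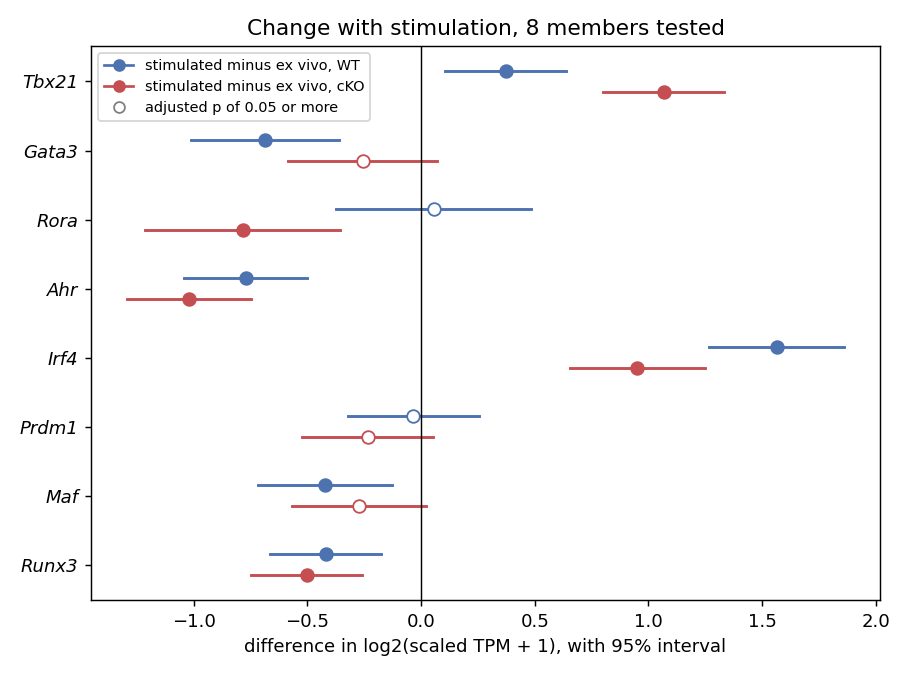
Change with stimulation for the 8 members tested (y axis), as log2(scaled TPM + 1) with its 95% interval (x axis), WT in blue and cKO in red. Filled points have an adjusted p under 0.05. Irf4 lies furthest right in WT (1.56) and Tbx21 in cKO (1.07), and Ahr lies furthest left in both.

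No member was called for the interaction of genotype and stimulation, where limma called 1.10% of all genes tested, and 0.00% with the filter at 1 TPM. At an unadjusted p under 0.05 there were 3 of the 8 (Tbx21, Rora and Irf4, beside 14.5% of all genes), and voom called 1, Rora. After quantile normalization Tbx21 and Gata3 were called (1.03 and 0.71, adjusted p = 0.0063 and 0.038), and without the third cKO stimulated library Tbx21 was called (0.84, adjusted p = 0.048).

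Factors that oppose effector differentiation were set beside the members. Of 5 genes, limma called only Lef1 between the genotypes ex vivo, at -0.69 ± 0.09 (adjusted p = 0.0017), and voom called 2. Id3 differed ex vivo by -0.48, with an interval of -0.82 to -0.15, and was not called by limma (adjusted p = 0.10). In stimulated cells 4 were called lower in cKO and none higher. These were Bcl6, which represses and is repressed by Prdm1, at -1.38 ± 0.18 (adjusted p = 0.0015), the T cell factor gene Tcf7 at -1.30 ± 0.13 (adjusted p = 0.00026), Lef1 and Id3. The list median was -0.17 ex vivo and -1.12 stimulated.

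The levels of the members were ordered in each group. In WT ex vivo Gata3 (112 TPM) was followed by Irf4 (41.0), Rora (30.2), Maf (27.8), Runx3 (18.9), Ahr (18.7), Prdm1 (5.43), Tbx21 (4.79) and Eomes (3.06), as scaled group means. The library ranges of Rora and Maf, of Runx3 and Ahr, and of Prdm1 and Tbx21 overlapped, and the other neighbours were separate. In cKO ex vivo the order ran Gata3, Irf4, Rora, Maf, Ahr, Runx3, Tbx21, Prdm1 and Eomes, with overlaps between Rora and Maf and between Maf and Ahr. Stimulation put Irf4 first in both genotypes, at 123 TPM in WT and 178 TPM in cKO, with Gata3 second at 69.1 and 119 TPM. Below these, the order in WT stimulated ran Rora, Maf, Runx3, Ahr, Tbx21, Prdm1 and Eomes, in which only Tbx21 and Prdm1 overlapped. In cKO stimulated Tbx21 came at 24.0 TPM after Maf (33.6) and Rora (24.1), with which it overlapped, and before Runx3 (18.7), with which it overlapped too, as Runx3 did with Ahr (16.7).

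For each tested member the most similar profiles were sought among the other tested genes, as the smallest root mean square difference of centred log2(scaled TPM + 1) values over the 12 libraries, which also share their depth and scaling. Nearest to Tbx21 were Slc15a3 and Gpld1, both at 0.19, where the spread of Tbx21 about its own mean was 0.81. Irf4, with a spread of 0.78, had Atp2b4 at 0.14 and Slc41a1 at 0.19. Ahr (spread 0.59) had Grik5 at 0.15 and Slc25a25 at 0.18. Gata3 lay nearest to Stk39 and Kbtbd11 (both 0.10), Rora to Itpkb and Atg2a (both 0.13), and Prdm1 to Tmem2 (0.12) and Cobll1 (0.13). Maf lay nearest to Csf1 and Ggta1 (both 0.16) and Runx3 to 2210403K04Rik (0.11) and Coro1b (0.13).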

How the data were processed

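Per the labels and the study's methods, the authors made directional libraries from RNA without ribosomal RNA, read 51 bp from both ends, aligned to mm9 (STAR 2.6.0c) and counted Ensembl exon reads by strand (HTSeq 0.6.1). The deposited table gives a signal for every gene in each library, in TPM summing to 1000000, and log2 values to which the authors had added the value of 1 read. From these the reads were recovered, whole within 0.01 for all but 10 of 434664 values. A deposited table of the authors' own comparisons (fold changes and p-values) was not used.

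TPM were divided by TMM factors (30% and 5% trimmed), a pseudocount of 1 was added, and limma 3.58.1 (R 4.3.3, lmFit and eBayes with trend) was fitted to all 12 libraries with 4 group means, over genes whose highest group mean reached 5 TPM. The fold changes understate low genes. Tests were two-sided, adjusted by Benjamini-Hochberg within each of 5 comparisons and called under 0.05, and the script was tested on simulated data. Replicates were single animals. Intervals are 95% and come from the spread between libraries. Tables were handled in Python 3.11.15.

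The genes named are the members, Ikzf1, lists of related genes and cell type markers, and for each member the 2 nearest profiles. Members, lists and the 5 TPM filter were chosen with earlier results of these data known. Alternatives were filters at 1 TPM and none, a pseudocount of 0.1, no scaling, rescaling without Gm10800, quantile normalization, no trend, voom on recovered reads, a replicate block, only the 2 groups compared, and each library left out. The filter at 1 TPM with a replicate block was added after seeing the data. Positions are from GENCODE vM1. Some items of the lists are not reported here.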

Additional observations from a re-analysis of the deposited data

How the results depend on the processing

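Loosening the filter on low values to 1 TPM lowered the count of genes called in 4 of the 5 comparisons, and removing it lowered all 5. At 1 TPM, where 33873 genes were tested, 57 genes were called against 704 at 5 TPM (genotype, ex vivo), 52 against 923 (genotype, stimulated), 1731 against 4262 (stimulation in WT) and 0 against 147 (interaction), and 0, 1 and 2 members against 6 in the first 3. For stimulation in cKO it called 5927 genes against 5835, and 5 members in each, Maf and Prdm1 in place of Tbx21 and Irf4. With no filter the counts in these 4 comparisons were 44, 52, 1676 and 0 genes, and 0, 1 and 2 members, and 5689 genes and 5 members for stimulation in cKO. The TPM as deposited gave 273, 306, 1943 and 67 genes, with 1 member each for genotype stimulated and stimulation in WT. Rescaling without Gm10800 gave 258 interaction genes and 3, 2 and 3 members for genotype stimulated and stimulation in WT and cKO, beside 681, 6342 and 5609 genes. Quantile normalization gave 1579 genes for genotype stimulated and 392 for the interaction, with 3 members for stimulation in WT and 2 for the interaction. Voom gave 1203 genes ex vivo and 395 for the interaction, with 1 member there. Only the 2 groups compared gave 553 genes and 3 members for genotype stimulated, and no trend gave 95 interaction genes. The filter at 1 TPM with a replicate block, chosen after seeing the data, gave 18, 1, 1151 and 0 genes and 0, 0 and 1 member. The cause was not tested.

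Leaving out 1 library gave 325 to 740 genes and 4 to 6 members ex vivo (350, 453 and 325 without the first, the second and the third cKO ex vivo library and 371 without the third WT ex vivo library), 398 to 1058 genes and 2 to 6 members for genotype stimulated (580, 398 and 456 genes without the first, the second and the third WT stimulated library, 447 and 602 without the first and the third cKO stimulated library), 3256 to 4387 genes and 3 to 6 members for stimulation in WT (3474 genes and 3 members without the third WT ex vivo library), and 50 to 206 genes and 0 to 1 member for the interaction.

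Same-numbered libraries did not deviate together throughout (correlations of 0.15, 0.26 and 0.078 between WT and cKO ex vivo and of -0.067, 0.00090 and 0.041 between WT ex vivo and WT stimulated). Differently numbered libraries of WT and cKO ex vivo correlated at -0.18 to 0.063. With 3 libraries in each group these values cannot show whether the numbers pair the samples. With the replicate block the members called were 4, 4, 5, 5 and 0 in the 5 comparisons, beside 516, 630, 3945, 5458 and 65 of all genes tested.

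Signs turned 23 times in 922 member values, including the added setting, all in stimulation or interaction changes. For stimulation in WT, Rora was -0.19 at 1 TPM with and without the block, -0.20 with no filter, and -0.059 (without WT ex vivo 3) to 0.23 when a library was left out (-0.026 without WT stimulated 2). Prdm1 was 0.14 as deposited, 0.36 rescaled without Gm10800 and -0.12 to 0.11 when a library was left out (0.11 without WT ex vivo 2), and Maf (0.0084) and Runx3 (0.0030) turned on that rescaling. The rescaling raised the WT changes of Prdm1, Maf, Runx3 and Gata3 together, so these turns are not particular to a gene. In cKO Gata3 was 0.44 and Maf 0.13 after quantile normalization, and Gata3 (0.0079) and Prdm1 (0.0060) turned on that rescaling. For the interaction, as deposited, Gata3 was -0.097 and Maf -0.36. Maf was also -0.15 at 1 TPM with and without the block, -0.14 with no filter and -0.020 on that rescaling. Runx3 was 0.038 after quantile normalization, 0.0071 without cKO ex vivo 1 and 0.035 without cKO stimulated 3. Depth limits Eomes, at 82 to 231 reads, and in WT ex vivo also Tbx21, which had fewer reads than Eomes there, at 102 to 131.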
